A study of Rattus norvegicus with 22 samples.

Results

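Gad1, Gad2, Slc32a1 and Pvalb, 4 genes of GABA synthesis, vesicle loading and inhibitory neurons, were followed in the prefrontal cortex of rats given a cannabinoid, cocaine, both or neither. They were chosen by their Ensembl IDs (ENSRNOG00000000007, ENSRNOG00000018200, ENSRNOG00000015393 and ENSRNOG00000006471, in that order) among the 29663 genes of the deposited table. All 4 passed the filter on low values, as did 15326 genes in all. The rats were male Sprague-Dawley, and the title of the series places the cannabinoid exposure in adolescence. The labels name the groups as control, WIN (WIN is a synthetic agonist of cannabinoid receptors), cocaine, and WIN with cocaine, with 3 RNA sequencing libraries in each. The labels and title give no dose, interval or age and do not state whether each library came from a separate animal, so p-values measure the spread between these libraries, which may be technical. The ATAC libraries (a map of open chromatin) and the nucleus accumbens libraries were not used here.

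GABA is the main inhibitory transmitter of the cortex and is made from glutamate by glutamate decarboxylase. Gad1 encodes the GAD67 form, which is active throughout the cell body and supplies most cortical GABA, and Gad2 the GAD65 form, which is concentrated at nerve terminals and supports release during demand. Slc32a1 encodes VGAT, the transporter that loads GABA and glycine into synaptic vesicles. Pvalb encodes parvalbumin, a calcium-binding protein that marks the fast-spiking basket and chandelier interneurons, which inhibit the soma and axon of pyramidal neurons. Gad1, Gad2 and Slc32a1 are shared by nearly all cortical interneurons, whereas Pvalb belongs to a subset of them.

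Bases before an annotated start of each gene are shown as a description, and their relation to the differences between groups was not tested. The bases come from the RefSeq promoter table of build GRCr8, in which all 4 genes were found by symbol. For Gad2 and Slc32a1 the 250 bases before the RefSeq start are given, at chr17:89671468-89671717 and chr3:167686995-167687244, both on the plus strand. For Pvalb the 250 bases lie on the minus strand at chr7:111666290-111666539, before a start inside the span of the gene, so these bases are inside that span too. For Gad1 the 58 bases before the first base of the gene's span are given, at chr3:75777202-75777259 on the plus strand. Capitals mark TATAAA (the TATA box), TGACG (the core of the cAMP response element, which CREB binds) and GGGCGG (the GC box, which Sp1 binds), on either strand.
Gad1: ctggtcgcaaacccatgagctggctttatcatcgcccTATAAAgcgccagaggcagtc
Gad2: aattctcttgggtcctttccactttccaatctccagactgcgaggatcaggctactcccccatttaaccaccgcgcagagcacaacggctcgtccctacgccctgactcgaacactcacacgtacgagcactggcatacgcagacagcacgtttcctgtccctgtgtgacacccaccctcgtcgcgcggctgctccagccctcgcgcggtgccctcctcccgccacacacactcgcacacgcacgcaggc
Slc32a1: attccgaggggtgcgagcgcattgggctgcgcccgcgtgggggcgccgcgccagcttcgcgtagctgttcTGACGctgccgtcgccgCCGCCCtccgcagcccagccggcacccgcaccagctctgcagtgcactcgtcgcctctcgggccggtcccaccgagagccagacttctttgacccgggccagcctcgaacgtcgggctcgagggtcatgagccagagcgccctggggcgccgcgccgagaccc
Pvalb: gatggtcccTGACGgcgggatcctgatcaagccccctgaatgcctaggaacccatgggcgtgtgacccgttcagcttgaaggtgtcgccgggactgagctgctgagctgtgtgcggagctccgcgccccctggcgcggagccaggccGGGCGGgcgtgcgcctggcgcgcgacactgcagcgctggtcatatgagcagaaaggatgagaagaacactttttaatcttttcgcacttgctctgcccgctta
Gad1 had TATAAA with its first base 21 bases before the gene's span, and a GC box 93 bases before the RefSeq start, which lies inside the span and outside the bases printed. Slc32a1 and Pvalb each had 1 TGACG and 1 GGGCGG on either strand, and Gad2 had no match to any motif searched. Over the 250 bases before the start of 33469 genes, TATAAA was found in 12.9%, TGACG in 18.2% and GGGCGG in 30.5%. The full element TGACGTCA (1.59% of the genes, overlapping TGACG) and the E-box CACGTG (5.59%) were found in none of the 4. The GC content of the 250 bases was 68.4% for Gad1, 62.0% for Gad2, 73.6% for Slc32a1 and 62.8% for Pvalb, beside a median of 51.2% over all genes. These matches describe the letters of the windows and do not show binding.

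All 4 genes were well expressed. FPKM, reads per gene scaled to gene length and library size, can be set side by side between genes. The mean FPKM over the 12 libraries was 61.0 for Pvalb, 58.5 for Gad1, 55.9 for Slc32a1 and 30.4 for Gad2. Pvalb, Gad1 and Slc32a1 lay above 89.4%, 88.9% and 88.3% of the tested genes, and Gad2 above 78.5%. The reads behind these values, recovered from the steps of the FPKM values, ran from 3897 to 5777 per library for Gad1, 1056 to 1814 for Gad2, 2347 to 4004 for Slc32a1 and 1518 to 2420 for Pvalb, in libraries of 20852442 to 27677077 reads. Between replicates of a group the residual SD of the log2 values was 0.13 for Gad1, 0.17 for Gad2, 0.14 for Slc32a1 and 0.13 for Pvalb. Read counting alone accounts for 2.62%, 4.40%, 3.20% and 6.54% of that variance, so the spread between libraries, not depth, set the precision. Gad2 was the least even of the 4: 82.4% of the 500 genes nearest to it in level had a smaller SD, against 57.2% to 65.7% for the others.

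**Figure D1:**
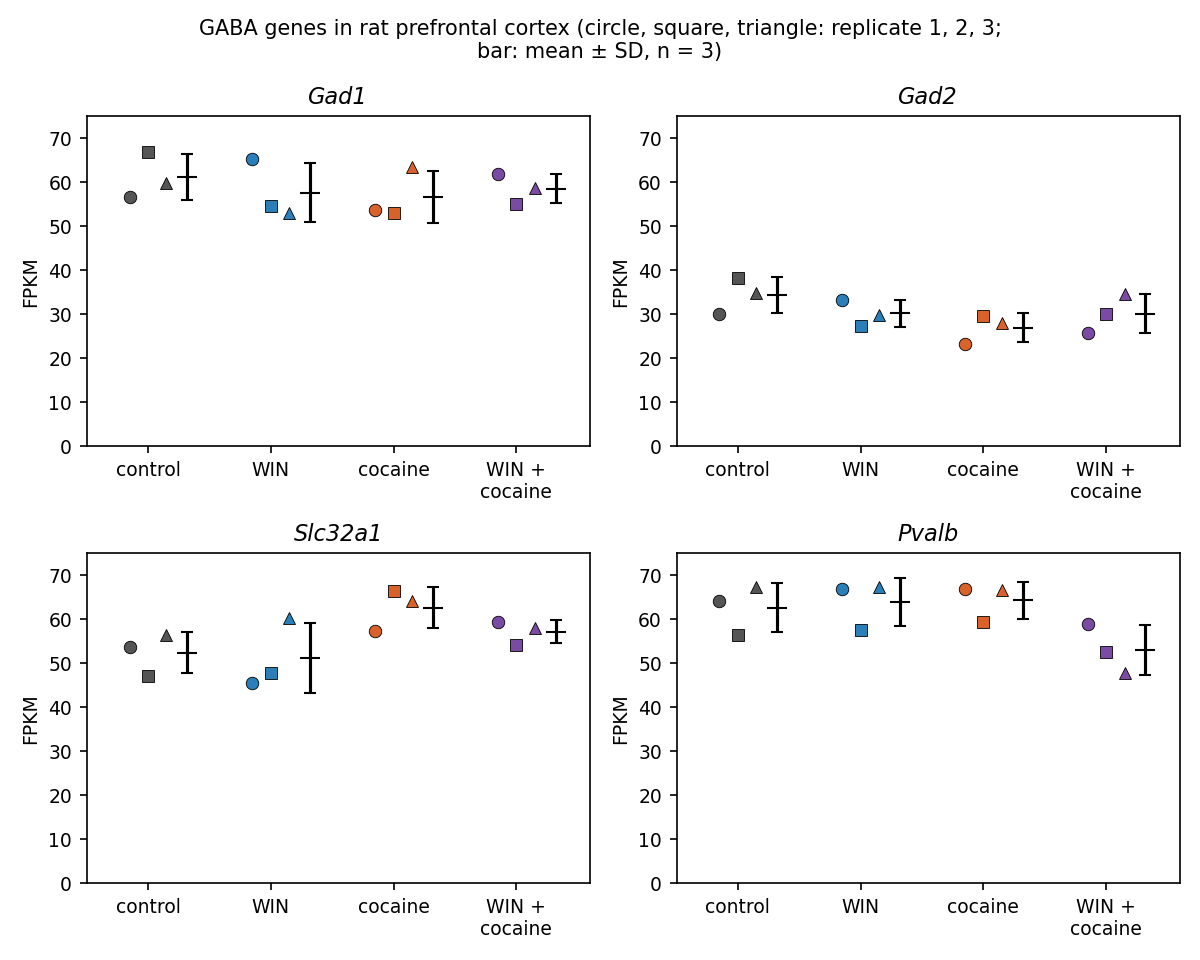
FPKM of the 4 genes (vertical axes, linear, from 0) in the 4 groups (horizontal axes); each point is 1 library, its shape gives the replicate number, and the bar gives the mean ± SD of 3 libraries. The Gad2 points of cocaine lie below those of control, the Slc32a1 points of cocaine above them, and the 3 Pvalb points of WIN with cocaine are low.

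Gad1, the main enzyme of GABA synthesis, showed the least difference between groups. The control libraries had an FPKM of 56.6, 66.8 and 59.9, the WIN libraries 65.3, 54.6 and 53.0, the cocaine libraries 53.6, 53.0 and 63.6, and those of both drugs 61.8, 55.2 and 58.6. The 4 ranges overlapped, and the highest of the 12 values was 1.26 times the lowest. The means were ordered control (61.1 ± 5.22, SD, n = 3), WIN with cocaine (58.5 ± 3.34), WIN (57.7 ± 6.68) and cocaine (56.7 ± 5.92), and no neighbours in this order differed beyond their spread. Against control, the log2 difference was -0.11 in cocaine (95% confidence interval -0.33 to 0.11), -0.08 in WIN (-0.30 to 0.14) and -0.06 in WIN with cocaine (-0.28 to 0.16). These intervals do not show that the level is alike; they limit a lower level to a log2 difference of about -0.33.

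Gad2, the enzyme form of nerve terminals, was lower in value in cocaine. Control had an FPKM of 30.1, 38.3 and 34.8, WIN 33.3, 27.3 and 29.9, cocaine 23.2, 29.7 and 28.0, and WIN with cocaine 25.7, 30.1 and 34.5. All 3 cocaine values lay below all 3 control values, the closest being 29.7 in cocaine and 30.1 in control, while WIN and WIN with cocaine overlapped both. The mean was 34.4 ± 4.11 (SD, n = 3) in control and 26.9 ± 3.36 in cocaine, with WIN (30.2 ± 3.02) and WIN with cocaine (30.1 ± 4.39) at nearly the same mean between them. Only the step from control to WIN exceeded the pooled SD of its pair, and the values of that pair overlapped.

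Slc32a1, the vesicular transporter, was higher in value in cocaine. The FPKM was 53.7, 47.2 and 56.4 for control, 45.5, 47.9 and 60.3 for WIN, 57.4, 66.4 and 64.1 for cocaine, and 59.3, 54.2 and 58.1 for both drugs. The 3 cocaine values lay above the 3 control values, the closest being 57.4 and 56.4, and WIN replicate 3 lay far from the other 2 WIN libraries, at the level of the cocaine libraries. The means were ordered cocaine (62.6 ± 4.67, SD, n = 3), WIN with cocaine (57.2 ± 2.64), control (52.4 ± 4.74) and WIN (51.2 ± 7.91). The steps from cocaine to WIN with cocaine and from there to control exceeded the pooled SD, with overlapping values in each, and control and WIN did not differ beyond it.

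Pvalb, the marker of fast-spiking interneurons, was lower in value in WIN with cocaine and level elsewhere. Values of 64.1, 56.5 and 67.4 FPKM were found in the control libraries, 66.8, 57.6 and 67.3 with WIN, 66.8, 59.5 and 66.7 with cocaine, and 59.0, 52.5 and 47.8 with both drugs. In the first 3 groups replicate 2 was the lowest library, and their means of 62.7 ± 5.58 (control), 63.9 ± 5.44 (WIN) and 64.4 ± 4.21 (cocaine; SD, n = 3) did not differ beyond their spread. WIN with cocaine, at 53.1 ± 5.66, was below control, the next group in order, by more than the pooled SD. Its values lay below all cocaine values, the closest being 59.0 and 59.5, and overlapped control and WIN through replicate 2 of those groups. In bulk tissue, fewer cells of a type and less RNA per cell cannot be told apart, for Pvalb and for the other 3 genes.

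Cocaine against control gives the response to cocaine without earlier cannabinoid. None of the 4 genes passed an adjusted p of 0.05 in limma, nor did any of the 15326 genes (0% called), in limma or in limma voom on the recovered reads, and the same held in the other 7 comparisons described here. That 0 was not stable: 2083 genes were called with library weights, 1378 in a fit of the compared libraries alone and 2782 without WIN replicate 3. At an unadjusted p under 0.05, which 31.1% of all tested genes reached, were 2 of the 4. Gad2 had a log2 difference of -0.34 (SE 0.13, 95% interval -0.62 to -0.06; limma adjusted p = 0.103). Slc32a1 had one of 0.25 (SE 0.11, interval 0.02 to 0.49; limma adjusted p = 0.131). These 2 genes were also those whose cocaine and control values did not overlap, as held for 40.0% of all genes, so neither count stands above the background of this comparison. Pvalb differed by 0.04 (interval -0.18 to 0.25). With an opposite direction for Gad2 and Slc32a1 and little difference for Gad1 and Pvalb, the median over the 4 genes does not describe them. The median over all genes was -0.02.

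The cocaine and control values of Gad2 and of Slc32a1 did not overlap, so leaving out 1 library could not reverse either difference. Over the left-out libraries the difference ran from -0.43 to -0.24 for Gad2 and from 0.18 to 0.31 for Slc32a1. The side of an unadjusted p of 0.05 changed with single libraries. Gad2 lost an unadjusted p under 0.05 without control replicate 2 (log2 difference -0.26), control replicate 3 (-0.33) or cocaine replicate 1 (-0.24). Slc32a1 lost it without control replicate 1 (0.27), control replicate 2 (0.18), cocaine replicate 2 (0.21) or cocaine replicate 3 (0.24), and with quantile normalization (0.23). Control replicate 2 had the highest Gad2 and the lowest Slc32a1 of its group. Without WIN replicate 3, which enters only the estimate of the spread, Slc32a1 had an adjusted p of 0.0495 in limma at the same difference of 0.25, and Gad2 kept an adjusted p above 0.05.

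WIN against control gives the effect of the cannabinoid alone. None of the 4 genes was called in limma, and none reached an unadjusted p under 0.05, as 1.55% of all genes did. The log2 differences were -0.08 for Gad1, -0.18 for Gad2 (95% interval -0.46 to 0.10), -0.04 for Slc32a1 (-0.27 to 0.19) and 0.03 for Pvalb (-0.19 to 0.24). In no gene did the groups separate, as 5.93% of all genes did. The Gad2 difference was -0.10 without control replicate 2 and -0.11 without WIN replicate 2, and the Gad1 difference ran from -0.18 to -0.02 over the left-out libraries.

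The 2 groups given cocaine, with and without WIN, were then compared. Pvalb was not called and had the largest log2 difference of the 4, -0.28 (SE 0.10, 95% interval -0.49 to -0.06, limma adjusted p = 0.468). All 3 of its WIN with cocaine values lay below the 3 of cocaine. Pvalb was 1 of the 4 at an unadjusted p under 0.05, beside 10.6% of all genes. Groups did not overlap in 18.0% of all genes. Gad2 and Slc32a1 lay nearer to control than in cocaine, with differences of 0.15 (interval -0.13 to 0.44) and -0.13 (-0.36 to 0.11), and Gad1 differed by 0.05 (-0.17 to 0.27). The Gad2 difference was 0.053 without cocaine replicate 1, 0.054 without WIN with cocaine replicate 3 and 0.26 without WIN with cocaine replicate 1, and the Gad1 difference ran from 0.0024 to 0.13 over the left-out libraries. The Pvalb difference lost an unadjusted p under 0.05 without cocaine replicate 1 or cocaine replicate 3 (both -0.25) or without WIN with cocaine replicate 3 (-0.20), which had the lowest Pvalb of all 12 libraries.

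The effect of cocaine among rats given WIN was read from the 2 groups that received it. Pvalb again had the lower value, with a log2 difference of -0.26 (SE 0.10, 95% interval -0.48 to -0.05; limma adjusted p = 0.975), although 59.0 in WIN with cocaine exceeded 57.6 in WIN. At an unadjusted p under 0.05 were 1 of the 4 and 3.76% of all genes, and groups did not overlap in 7.46% of all genes and in none of the 4. Pvalb lost it without WIN replicate 1 or 3 (both -0.23) or WIN with cocaine replicate 3 (-0.19). Slc32a1 differed by 0.17 (interval -0.07 to 0.40), Gad1 by 0.03 (-0.19 to 0.25) and Gad2 by -0.01 (-0.29 to 0.27). WIN replicate 3 held the highest Slc32a1 of its group, and without it the Slc32a1 difference was 0.29 (limma adjusted p = 0.236). Without WIN replicate 1 it was 0.088.

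WIN with cocaine against control sets both treatments against neither, and shares its libraries with the comparisons above. Pvalb had a log2 difference of -0.24 (SE 0.10, 95% interval -0.45 to -0.02; limma adjusted p = 0.624), and 1 of the 4, beside 7.91% of all genes, reached an unadjusted p under 0.05. Groups did not overlap in 19.6% of all genes and in none of the 4. Gad2 differed by -0.19 (interval -0.47 to 0.09), Slc32a1 by 0.13 (-0.11 to 0.36) and Gad1 by -0.06. The Gad2 difference was -0.084 without WIN with cocaine replicate 1, -0.11 without control replicate 2 and -0.29 without WIN with cocaine replicate 3, and the Slc32a1 difference was 0.054 without control replicate 2. The Pvalb difference lost an unadjusted p under 0.05 without control replicate 1 (-0.22) or 3 (-0.18), or without WIN with cocaine replicate 2 (-0.23) or 3 (-0.16).

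**Figure D2:**
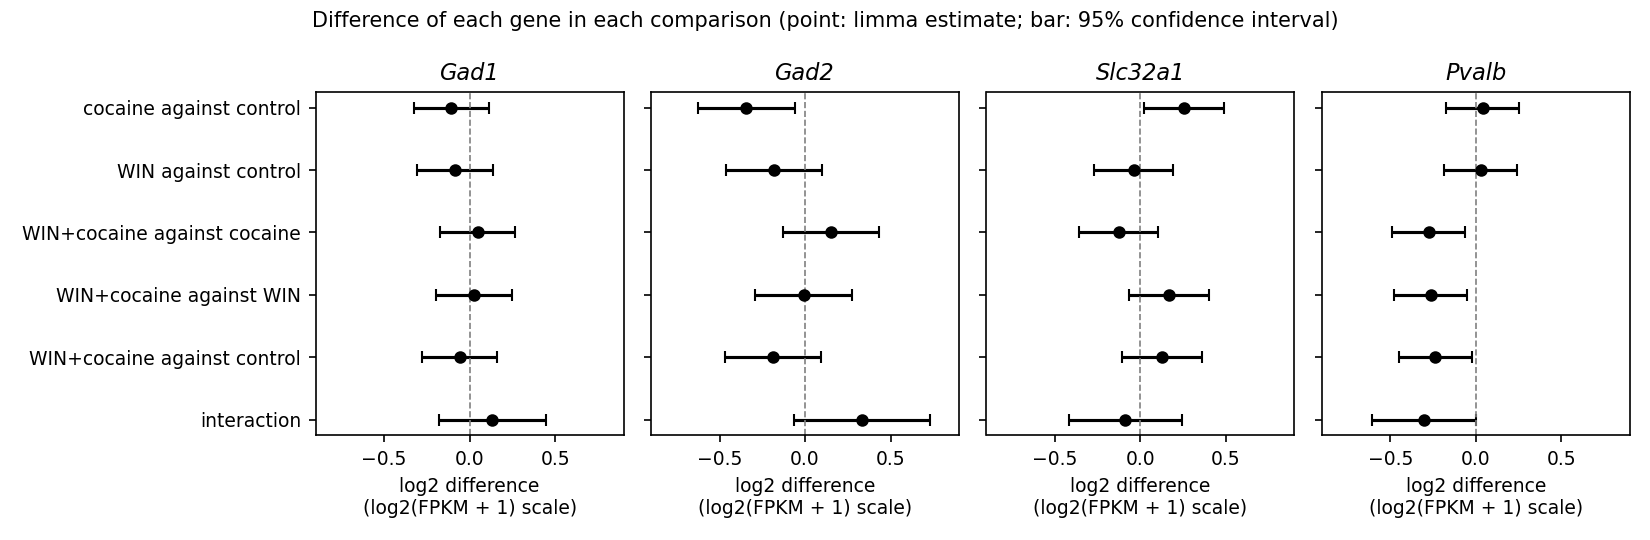
Log2 difference of each gene (horizontal axes, log2(FPKM + 1) scale) in 5 comparisons of groups and in the interaction; points are limma estimates and bars 95% confidence intervals. The intervals lie off 0 for Gad2 (below) and Slc32a1 (above) in cocaine against control, and for Pvalb (below) in the 3 comparisons of WIN with cocaine.

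The interaction tests whether the cocaine difference was the same with and without WIN. No gene was called in limma, and none of the 4 reached an unadjusted p under 0.05, as 9.02% of all genes did. Pvalb came closest, with a cocaine difference of 0.04 without WIN and -0.26 with it, an interaction of -0.30 (SE 0.14, 95% interval -0.61 to 0.0003; limma adjusted p = 0.539). For Gad2 the cocaine difference was -0.34 without WIN and -0.01 with it, an interaction of 0.33 (SE 0.18, interval -0.06 to 0.73; limma adjusted p = 0.547). Slc32a1 had an interaction of -0.09 (interval -0.42 to 0.24) and Gad1 one of 0.13 (-0.18 to 0.44). The Pvalb interaction reached an unadjusted p under 0.05 with no filter (-0.30), the replicate block (-0.30), median ratio rescaling (-0.33), and without control replicate 3, WIN replicate 2, cocaine replicate 2 or WIN with cocaine replicate 1 (-0.38 to -0.36). The Gad2 interaction did so without control replicate 1 (0.42) or WIN with cocaine replicate 1 (0.44). In no alternative did an interaction of the 4 genes pass an adjusted p of 0.05, and the lowest was 0.372 in limma.

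With the 6 cocaine-treated libraries set against the 6 others in the same fit, Slc32a1 had the clearest difference of the 4. Its log2 difference was 0.21 (SE 0.08, 95% interval 0.05 to 0.37; limma adjusted p = 0.124), and 1 of the 4, beside 25.5% of all genes, reached an unadjusted p under 0.05. Without WIN replicate 3 it was 0.27 with a limma adjusted p of 0.0133, past the threshold, as were 3289 genes in all, and library weights called 2797 genes, Slc32a1 among them. Gad2 differed by -0.18 (interval -0.37 to 0.02), Pvalb by -0.11 (-0.26 to 0.04) and Gad1 by -0.04. With the 6 WIN-treated libraries against the 6 others, Pvalb differed by -0.12 (-0.28 to 0.03), Slc32a1 by -0.08, Gad1 by -0.02 and Gad2 by -0.01. None of the 4 reached an unadjusted p under 0.05 in limma there, as 2.44% of all genes did, though Pvalb and Slc32a1 did so in some of the alternatives. Gad2 and Pvalb did so for cocaine in some of theirs, and none of these passed adjustment.

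Ratios between the genes within a library do not depend on how the library was scaled. The ratio of Pvalb to Slc32a1, the fast-spiking marker over the pan-GABA transporter, was lower on average in the cocaine-treated libraries. Control had ratios of 1.19, 1.20 and 1.19, WIN 1.47, 1.20 and 1.12, cocaine 1.16, 0.896 and 1.04, and WIN with cocaine 0.996, 0.968 and 0.822. Cocaine-treated libraries averaged 0.981 and the others 1.23, and 1.16 in cocaine replicate 1 was the one cocaine-treated value above the lowest of the others, 1.12 in WIN replicate 3. The log2 difference was -0.33, with -0.22 without WIN and -0.44 with it. The values of the genes behind it are given for each of these strata. Neither gene had an interaction past an adjusted p of 0.05 in limma, and that of the ratio was not tested. Without WIN, the limma log2 difference for cocaine was 0.04 for Pvalb and 0.25 for Slc32a1. With WIN, it was -0.26 for Pvalb and 0.17 for Slc32a1. The pooled ratio is therefore not a measure of Pvalb alone. An exact two-sided permutation test within WIN strata gave p = 0.005, the smallest it can give, and an adjusted p of 0.06 over the 12 tests of 6 ratios. The near-equal control values come from 3 libraries only, whose Pvalb and Slc32a1 FPKM differed among themselves.

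The ratio of Slc32a1 to Gad2, RNA of the vesicular transporter over RNA of the terminal enzyme, was higher on average in the cocaine-treated libraries. The control ratios were 1.78, 1.23 and 1.62, those of WIN 1.37, 1.75 and 2.01, those of cocaine 2.48, 2.24 and 2.29, and those of both drugs 2.31, 1.80 and 1.68. The 3 cocaine values and WIN with cocaine replicate 1 lay above all 6 libraries without cocaine. The log2 difference for cocaine was 0.39, from 0.61 without WIN and 0.18 with it (exact two-sided permutation p = 0.025, adjusted p = 0.15). The difference between those 2 strata was not tested.

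No ratio passed an adjusted p of 0.05, these 2 included. Ratios of other gene pairs were not tested, so the p-values have no background over all genes. For single genes, 25.5% reached an unadjusted p under 0.05 in limma for the cocaine-treated libraries against the others. A single ratio could not have passed on its own, since the smallest p of the permutation test gives 0.06 over the 12 tests. Slc32a1 to Gad1 had a log2 difference of 0.25 for cocaine (exact two-sided permutation p = 0.095, adjusted p = 0.38). Gad1 to Gad2, the RNA balance of the enzyme forms, averaged 1.78 ± 0.0864 (control, SD, n = 3), 1.91 ± 0.123 (WIN), 2.12 ± 0.293 (cocaine) and 1.98 ± 0.375 (both drugs). Its spread was wider in the cocaine-treated groups, which held both the highest and the lowest of the 12 values (2.40 and 1.70, both in WIN with cocaine). Its log2 difference was 0.14 for cocaine (exact two-sided permutation p = 0.205, adjusted p = 0.615). Pvalb to Gad2 averaged 1.85 ± 0.337 (control; SD, n = 3), 2.12 ± 0.121 (WIN), 2.43 ± 0.440 (cocaine) and 1.81 ± 0.459 (both drugs). Its cocaine difference was 0.39 without WIN and -0.26 with it, and the difference between these was not tested. For WIN, all 6 ratios had adjusted p of 0.796 to 0.985 in the exact permutation test.

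**Figure D3:**
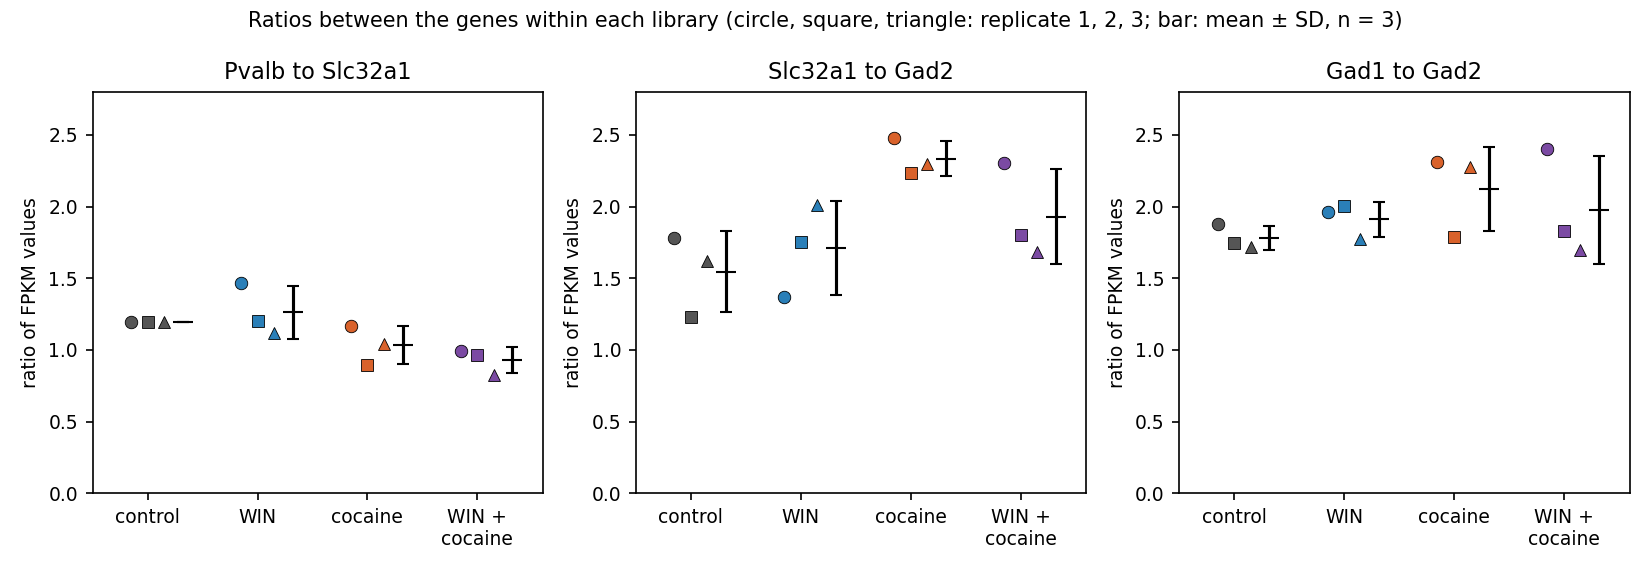
Ratios of FPKM values within each library (vertical axes, linear, from 0) for 3 pairs of genes in the 4 groups; points are libraries, shapes replicate numbers and bars the mean ± SD of 3. Pvalb to Slc32a1 averages 1.23 in the libraries without cocaine and 0.981 in those with it, and Slc32a1 to Gad2 lies from 2.24 to 2.48 in cocaine.

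From library to library the 4 genes did not move as a block. Of the 6 pairs, Gad1 and Gad2 had the highest correlation of log2 values over the 12 libraries, with Pearson's r of 0.494 (permutation p = 0.104) and Spearman's rho of 0.455 (p = 0.140). Without control replicate 2 and WIN replicate 1, the libraries farthest from the median of Gad1, r was 0.149. Leaving out libraries chosen as extreme in Gad1 also narrows its range. With any 1 library left out, r ran from 0.299 to 0.629. Gad1 and Slc32a1 had r of -0.397 and rho of -0.427, and Gad2 and Slc32a1 r of -0.377 and rho of -0.434 (permutation p from 0.162 to 0.227). Without the 2 farthest libraries the former turned to an r of 0.186 (without control replicate 2 and WIN replicate 1) and the latter was -0.205. With any 1 library left out, the former stayed negative, from -0.596 to -0.225. The pairs with Pvalb had r of 0.029 (Gad1), -0.278 (Gad2) and 0.085 (Slc32a1). No pair passed adjustment over the 6, where adjusted p ran from 0.332 to 0.929. Within groups, after subtraction of the group means, r was 0.388 for Gad1 and Gad2, -0.399 for Gad1 and Slc32a1 and -0.044 for Gad2 and Slc32a1 (exact permutation p = 0.265, 0.355 and 0.894).

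In likeness of pattern over the 12 libraries, none of the 4 genes was among the closest to another. Ordered by r with Gad1 among 15325 genes, Gad2 ranked 2260, Pvalb 7742 and Slc32a1 12582, so 14.7% of genes were more like Gad1 than Gad2 was. Ordered by r with Gad2, Gad1 ranked 2782, with 18.1% of genes more alike. Ordered by r with Slc32a1, Pvalb ranked 6165, Gad2 9866 and Gad1 10043. Among the genes with an Ensembl ID other than the 4, that most like Gad2 was ENSRNOG00000007528 (r = 0.973). That most like Slc32a1 was ENSRNOG00000002981 (r = 0.975). Rows without an Ensembl ID were left out of this choice and kept in the ranks and counts. An r over 0.9 was shared with Gad2 by 148 genes and with Slc32a1 by 179, and with Gad1 and Pvalb by 0. These r describe 12 libraries that share 4 group means.

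Over the 12 libraries, Slc32a1 and Gad2 were correlated with the main axis of the whole data set past an adjusted p of 0.05. Gad1 was so by rho and not by r. These permutations ran over all 12 libraries without regard to group, so their p-values also take in differences between groups. Within groups none of the 4 genes passed, with adjusted exact permutation p from 0.179 to 0.396. The axis, the first principal component of all tested genes other than the 4, held 28.5% of the variance. Libraries of cocaine without WIN lay at its high end, with WIN replicate 3 level with cocaine replicate 3. Control replicate 2 and WIN replicate 1 lay at its low end. The WIN with cocaine libraries lay between those of cocaine and control, with scores of 4.83, -5.56 and -0.157. Slc32a1 had r of 0.822 and rho of 0.860 with it (permutation p = 0.00117 and 0.00056, adjusted p = 0.00468 and 0.00224 over 4 genes). Gad2 had r of -0.680 and rho of -0.643 (permutation p = 0.0146 and 0.0271, adjusted p = 0.0292 and 0.0411). Gad1 had r of -0.576 and rho of -0.629 (permutation p = 0.0504 and 0.0308, adjusted p = 0.0672 and 0.0411). Pvalb had r of 0.189 and rho of 0.182 (permutation p = 0.557 and 0.573, adjusted p the same).

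The axis is not particular to these genes, since the median absolute r over all tested genes was 0.543, and 17.3% of them exceeded Slc32a1, 35.0% Gad2 and 46.3% Gad1. Without cocaine replicates 1 and 2, the libraries farthest out, r was 0.927 for Slc32a1, -0.588 for Gad2, -0.351 for Gad1 and 0.086 for Pvalb. Within groups, with the group means subtracted, r was 0.699 for Slc32a1, -0.682 for Gad1, -0.425 for Gad2 and 0.316 for Pvalb, with exact permutation p of 0.0880, 0.0895, 0.193 and 0.396. Libraries of 1 treatment thus differed along the axis too, and the part of this in the cocaine values of Slc32a1 and Gad2 was not tested.

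**Figure D4:**
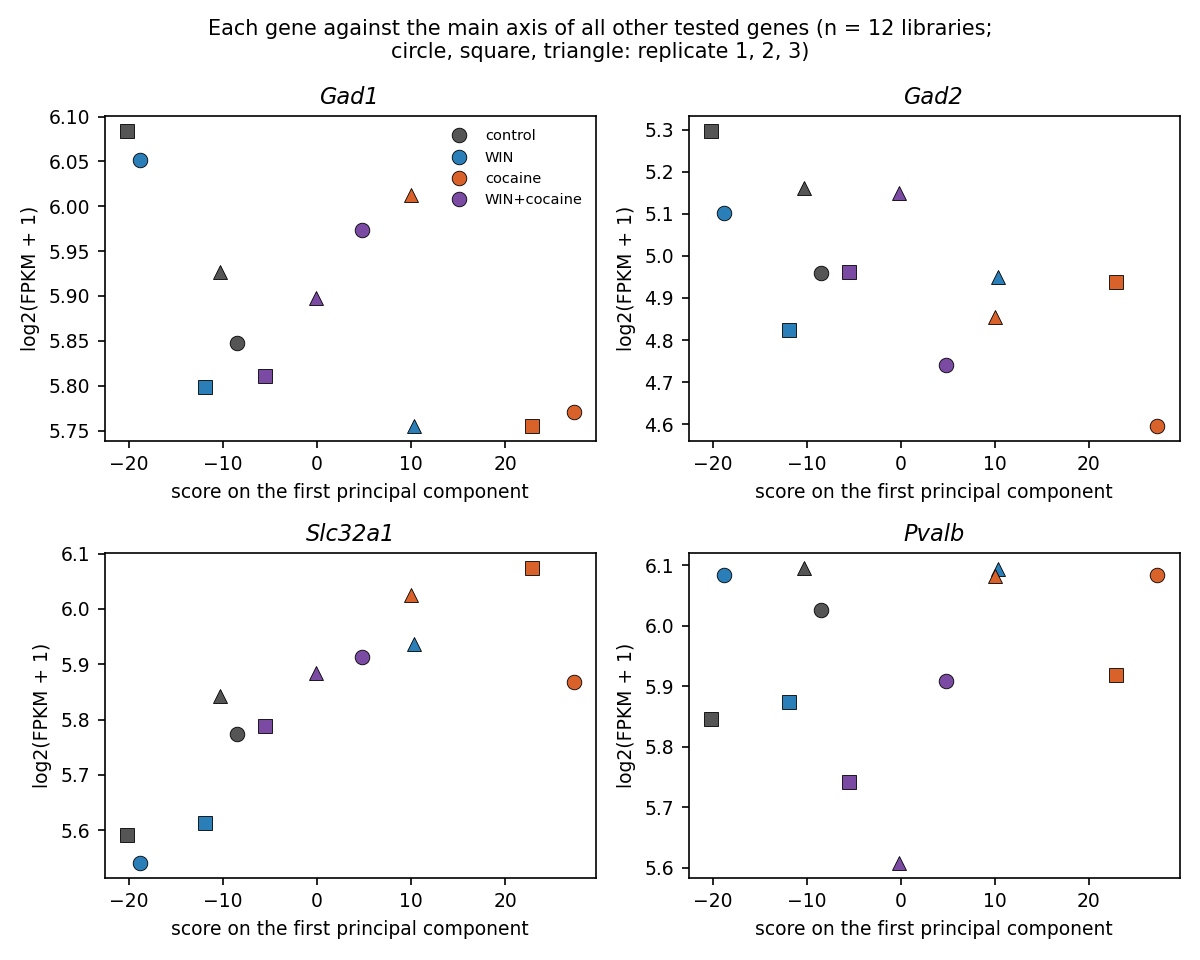
Log2(FPKM + 1) of each gene (vertical axes) against the score of each library on the first principal component of the other tested genes (horizontal axes); each point is 1 of 12 libraries, coloured by group and shaped by replicate. Slc32a1 is higher (r = 0.822) and Gad2 lower (r = -0.680) toward the cocaine end, and Pvalb has no clear relation (r = 0.189).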

How the data were processed

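RNA of rat prefrontal cortex was measured in 12 libraries, 3 for each of 4 treatments, with groups and replicate numbers taken from the sample titles. Per the labels' protocols, total RNA entered a stranded library kit. The authors deposited FPKM values, and the submitters' processing notes name HISAT2, HTSeq and DESeq without versions. No build, annotation or strand setting is named in the labels, and overlapping genes may share reads. Of the 29663 rows, 26689 carry an Ensembl ID, the 4 members among them. The 4 symbols come with the choice of members, and since none of the 47357 rows of the RefSeq gene table (GRCr8) carries an Ensembl ID, the symbols, the lists of other GABA genes and the cell type markers could not be looked up and were not analysed here. No region of the ATAC tracks was tied to a gene.

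A gene was tested if its FPKM reached 1 in at least 3 libraries. Limma 3.58.1 (R 4.3.3) was fitted to log2(FPKM + 1) over all 12 libraries with 4 group means and a trended prior variance, two-sided, with Benjamini-Hochberg adjustment over 15326 genes in each of 8 comparisons, with calls at an adjusted p under 0.05. Fold changes on this scale slightly understate those of the FPKM. All 24197 genes with a value gave whole reads (within 0.01 of a read) when each library was scaled by 1 factor, and gene lengths implied by them were whole within 0.03 bp for 99.98% of 11615 genes, where 6% is expected by chance. These reads give the depths and enter limma voom. Ratios were tested by exact permutation within strata of the other drug (400 arrangements), and correlations with 100000 resamples or, within groups, exactly. Named genes were the 4 members and the 2 IDs most like one of them. The limma procedure was also run on simulated data in which genes varied independently. That run cannot check it under variation shared between genes, as along the main axis here. The alternatives were another pseudocount, no filter, other scalings, library weights, voom, a replicate block, only the libraries compared and leaving out each library. The members, lists and tests were chosen with earlier results of these data known, and the relation to the principal component was added after the data were examined.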

Additional observations from a re-analysis of the deposited data

How the results depend on the processing

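Each of the 32 differences in level was refitted under 19 or 20 alternatives, and of the 4 genes Slc32a1 alone was called in any. In cocaine against control Slc32a1 was called without WIN replicate 3, where 2782 of 15273 genes were called. In the 6 cocaine-treated libraries against the 6 others it was called with library weights (log2 difference 0.24, adjusted p = 0.0266 in limma). There 2797 of 15326 genes were called. It was also called in that comparison without WIN replicate 3, where 3289 of 15273 genes were called. With so many genes called, these calls do not single out Slc32a1. Leaving out replicates gave 0.18 to 0.31 in cocaine against control and 0.17 to 0.27 in the 6 against 6 comparison. Of the 12 estimated weights, that of WIN replicate 3 was lowest (0.296); beyond that the cause was not tested. Gad2 and Slc32a1 in cocaine against control, and Pvalb in the 3 comparisons of WIN with cocaine, kept their direction in all 20 alternatives each. Some of these cannot move the difference, namely no filter, the replicate block, only the libraries compared and leaving out a library of another group. Nor can a left-out library reverse it where the values of the 2 groups did not overlap.

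Differences near 0 changed sign. With library weights Pvalb was -0.045 in WIN against control, Gad1 -0.0055 in WIN with cocaine against cocaine and -0.012 against WIN, Gad2 0.025 against WIN, and Slc32a1 0.010 in the interaction. Over the left-out replicates, Pvalb ran from -0.032 to 0.094 in cocaine against control and from -0.043 to 0.10 in WIN against control, where Slc32a1 ran from -0.16 to 0.039. Gad1 ran from -0.030 to 0.12 and Gad2 from -0.11 to 0.10 in WIN with cocaine against WIN, and Gad1 from -0.11 to 0.0065 in WIN with cocaine against control. Slc32a1 ran from -0.17 to 0.033 in the interaction. In the 6 against 6 comparisons Gad1 ran from -0.082 to 0.0054 for cocaine and from -0.064 to 0.023 for WIN, and Gad2 from -0.064 to 0.039 for WIN.

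For the ratios, leaving out replicates gave log2 differences for cocaine of -0.37 to -0.27 (Pvalb to Slc32a1), 0.17 to 0.34 (Slc32a1 to Gad1) and -0.028 to 0.15 (Pvalb to Gad2). Without WIN replicate 3 the first 2 had an adjusted exact permutation p of 0.03. For WIN the ranges were -0.079 to 0.046 (Gad1 to Gad2), -0.16 to 0.020 (Slc32a1 to Gad1), -0.15 to 0.0060 (Slc32a1 to Gad2) and -0.10 to 0.0037 (Pvalb to Slc32a1). The correlations ran from -0.10 to 0.16 for Gad1 and Pvalb and from -0.020 to 0.28 for Slc32a1 and Pvalb.

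With the replicate number as a block, the differences were the same and no member was called; Gad2 in cocaine against control was -0.34 with an adjusted p of 0.109 in limma, and the block gave 3 calls over all genes there. The correlation of deviations between libraries with 1 number ran from -0.281 to 0.196, and 4 of 12 libraries were closest to one of their own number, so the numbers were not taken as pairs. With 3 libraries a group, the intervals reach about 0.2 to 0.3 on the log2 scale to either side, and this spread, not read depth, limits the 4 genes.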
